A study of Mus musculus with 6 samples.

Results

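The collagen chain genes are the genes for the alpha chains of every collagen type. Their members were all non-control probes whose gene name in the array files was Col, a number, a and a number, which gave 91 probes for 44 genes, of 56605 non-control probes for 27196 named genes in all. They were measured in cultured bone marrow stromal cells of mice on 6 one-colour (Cy3) Agilent arrays. The WT group held 3 samples from wild-type mice, and the KO group held 3 samples from mice with a knockout of NONMMUT002667, a long non-coding RNA. In both groups cells from crushed, collagenase-digested femurs were sorted as Sca-1+ CD29+ CD45- CD11b- and grown to the first passage, and all 6 samples are labelled male. The labels give no age, strain or treatment for the groups compared, do not say how the knockout was made, and do not say that each sample came from its own animal, so the p-values speak of the spread among the 6 samples only.

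A collagen molecule is made of alpha chains wound into a triple helix, in which a glycine stands at every position that faces the axis. Fibrillar collagens assemble into the banded fibrils of bone, tendon and skin, and in bone type I collagen is the scaffold on which mineral is laid down. Fibril-associated collagens with interrupted triple helices (FACITs) sit on the surface of those fibrils. Network collagens and the type IV collagen of basement membranes form sheets, type VI forms beaded filaments around cells, and transmembrane collagens span the cell membrane. Newly made chains are hydroxylated and folded by chaperones, trimmed outside the cell and cross-linked by lysyl oxidases.

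A repeat of this kind can be read in the sequence of some probes. Of the 91 collagen probes, 6 (6.59%) held at least 5 triplets of the form GGN spaced every 9 bases, against 10 of the other 56514 probes (0.0177%). Such a triplet encodes glycine where it is in frame. Of these 6 probes 2 were bright enough to be tested, those of Col22a1 and Col6a3. These 2 are shown because the first was the collagen probe that passed the test and the latter had a log2 difference of 0.19 (SE 0.27), and a dim probe of Col11a2, under the detection limit on each of the arrays, is shown beside them. Capitals mark the GGN triplets of the repeat, in the sense direction of the transcript. Probes with the repeat are called helix probes here, and their reading frame and place in the protein were not checked.

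Col22a1 helix probe: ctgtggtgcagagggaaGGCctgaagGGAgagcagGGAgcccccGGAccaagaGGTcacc
Col6a3 helix probe: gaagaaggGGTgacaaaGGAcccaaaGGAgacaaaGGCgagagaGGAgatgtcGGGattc
Col11a2 helix probe: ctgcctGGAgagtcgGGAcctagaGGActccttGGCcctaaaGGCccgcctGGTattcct

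The Col22a1 probe lies on the minus strand within chr15:71767749-71768433 and the Col6a3 probe on the minus strand within chr1:92689602-92690594 (build mm9, as the files give it). Each is 60 bases long and covers a longer stretch of genome (685 and 993 bases), so each joins exons. The Col11a2 probe lies on the plus strand within chr17:34189287-34189453.

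All values are log2 signals with the 75th percentile of the same array as 0, so 1 unit is a 2-fold step. Levels are compared only between arrays for the same probe, because probes differ in brightness for reasons other than the amount of RNA. The share of spots well above background was 54.3%, 56.1% and 56.7% on the WT arrays and 53%, 52.1% and 49% on the KO arrays. Every KO array thus had a smaller share than every WT array. Whether this bears on the differences of dim genes was not tested. All 6 arrays were on 1 slide, with the WT arrays in its row 1 and the KO arrays in its row 2, so row and group cannot be told apart. The knocked-out RNA was not checked here. WT replicate 3 and KO replicate 1 went against the male label. Xist, the RNA of the inactive X chromosome, was well above background on these 2 arrays alone (-0.53 and -0.36, against -6.84 to -5.86 on the others), and Eif2s3y, a gene of the Y chromosome, read -6.72 and -6.32 there by its brighter probe, under the limit of detection, against 1.04 to 1.17 elsewhere. The difference of each tested gene is therefore also given without this pair of arrays. All 15 macrophage markers listed were well above background on all 6 arrays although the sort removed CD45+ and CD11b+ cells.

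Of the 44 genes, 30 had at least 1 probe bright enough to be tested, with 47 probes among them. Testing required signal well above background on all 3 arrays of WT, of KO or of both. Where a gene had several tested probes, the one brightest on average over the 6 arrays stands for it and is called its representative probe. Of the 30, 24 were well above background on all 6 arrays. The tested genes comprised 10 of 11 fibrillar, 6 of 9 FACIT, 3 of 3 network, 5 of 9 basement membrane, 3 of 6 type VI and 3 of 4 transmembrane genes.

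Of the 30 genes 22 had a negative and 8 a positive KO minus WT difference. The most negative were those of Col22a1, Col13a1, Col11a2, Col24a1, Col11a1, Col14a1, Col8a2 and Col5a2, from -2.08 to -1.07, while the type IV and type VI genes lay between -0.22 and 0.01. No collagen gene passed the threshold of 0.05 on the limma adjusted p (0 of 30 by the representative probe), where 0.0781% of the 15371 genes tested passed. Among single probes 1 of 47 passed, that of Col22a1 printed above, where 0.0594% of all probes passed. It met the filter only through the WT arrays. Testing only the probes that every array measured above background leaves this probe out, so that setting is no retest of it. There 0 collagen probes and 0 collagen genes passed, where 6 of 14300 genes did (0.042%). At an unadjusted limma p under 0.05, 11 of 30 genes were lower in KO, where 8.03% of all genes were. Only Col20a1 was higher at that p, where 6.94% of all genes were. In 13 of 30 genes every KO array lay below every WT array, where this held for 10.4% of all genes, and in 1 of 30 every KO array lay above, where this held for 12% of all genes. A log2 difference of -1 or less was seen in 8 of 30, where 1.41% of all genes had one. Some of these genes were detected on all WT arrays but not on all KO arrays. Among the 24 detected on all 6 arrays, 9 were lower at the unadjusted p (7.11% of the 14295 such genes overall), 11 had no overlap (9.66%) and 6 a difference of -1 or less (0.867%). The median log2 difference was -0.20 over the 30 collagen genes and 0.02 over all genes. In RNA from a mixed culture, fewer cells of a type and less RNA per cell cannot be told apart.

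By class, the median log2 difference was -0.82 for the 10 fibrillar genes, -0.60 for the 3 transmembrane genes, -0.17 for the 6 FACIT genes, -0.07 for the 5 basement membrane genes, -0.04 for the 3 type VI genes and 0.03 for the 3 network genes. The transmembrane median is the value of Col17a1 and Col23a1, dim genes with overlapping groups that met the filter only through the WT arrays. With normexp and quantile normalization they differed by -0.40 and -0.32. The number of collagen genes past the adjusted p depended on the fit: it was 5 with normexp background correction and quantile normalization, where 142 of all genes passed (0.924%), and 6 with a variance trend, where 153 passed (0.995%). With WT replicate 3 and KO replicate 1 left out it was 0, where 11 of all genes passed (0.0711%). In that setting 12 collagen genes were lower at an unadjusted limma p under 0.05, where 6.5% of all genes were, and the collagen median was -0.18.

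**Figure D1:**
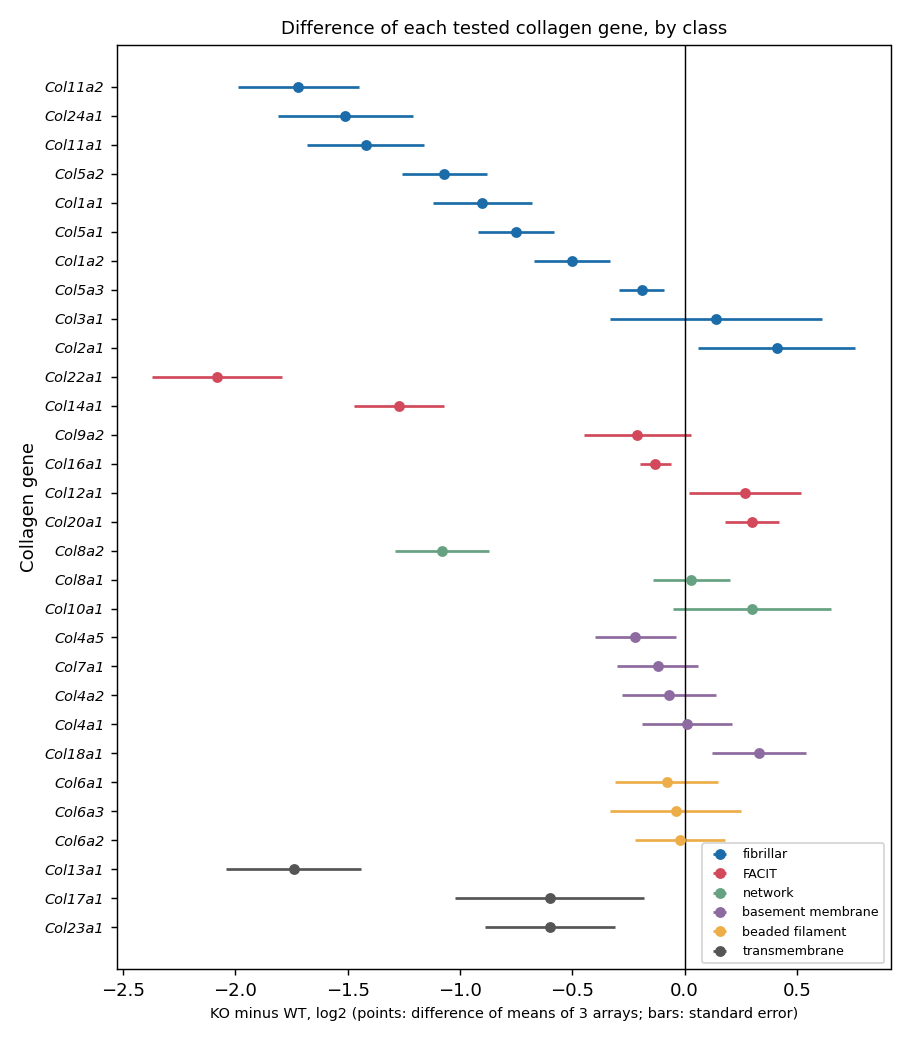
KO minus WT log2 difference of each of the 30 tested collagen genes, with points for the difference of the means of 3 arrays per group, bars for the standard error and colours for the class. Fibrillar genes run from -1.72 for Col11a2 to 0.41 for Col2a1, and the 3 type VI genes sit between -0.08 and -0.02.

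Type I collagen, the main protein of bone matrix, is built from the chains of Col1a1 and Col1a2. By its representative probe, Col1a1 read 8.07, 8.14 and 8.20 on the WT arrays and 7.56, 6.70 and 7.45 on the KO arrays. All 3 KO arrays lay below the WT arrays, with KO replicate 2 lowest. The log2 difference was -0.90 (SE 0.22, n = 3 arrays per group; 1.86-fold lower in KO; limma adjusted p = 0.141), and it was -1.03 with both Xist arrays left out and -0.63 without KO replicate 2.

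The 3 tested probes of Col1a1 did not give the same size of difference. The representative probe lies at chr11:94814188-94814247 on the plus strand (mm9). The other 2 lie upstream, the nearer starting 1073 bases before it, at chr11:94813075-94813134 and chr11:94813115-94813174. They share 20 bases and are thus not independent readings:

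Col1a1 shared by the upstream probes: tgaccaactgaacgtgacca

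The first of them read 7.74, 7.64 and 7.82 in WT and 7.68, 7.21 and 7.68 in KO (log2 difference -0.21, SE 0.14; limma adjusted p = 0.539). The other differed by -0.14 (SE 0.13; limma adjusted p = 0.670). In both, KO replicate 2 was the lowest array and the groups overlapped. The size of the Col1a1 difference therefore rests on the downstream probe. Without WT replicate 2 or WT replicate 3 an upstream probe was the brighter one and stood for the gene, at -0.26 and -0.17, while the downstream probe gave -0.90 and -0.87 there. The mean of the probes gave -0.42.

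Col1a2 read 8.68, 8.73 and 8.81 in WT and 8.49, 7.86 and 8.38 in KO by its representative probe at chr6:4490619-4490678. The KO arrays were again all below the WT arrays, with KO replicate 2 lowest. Its log2 difference was -0.50 (SE 0.17; limma adjusted p = 0.241), and those of its other tested probes were -0.71 (SE 0.14; limma adjusted p = 0.0945) and -0.65 (SE 0.16; limma adjusted p = 0.141). All 3 probes of Col1a2 separated the groups. Without KO replicate 2 the representative one gave -0.30.

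Type V and type XI chains co-assemble with type I and type II collagen and set the diameter of the fibril. Col5a1 read 5.85, 6.36 and 6.05 in WT and 5.38, 5.08 and 5.55 in KO (log2 difference -0.75, SE 0.17; limma adjusted p = 0.123). Col5a2 read 1.02, 1.74 and 1.19 in WT and 0.26, 0.12 and 0.36 in KO (log2 difference -1.07, SE 0.19; 2.10-fold lower; limma adjusted p = 0.0834). In both genes the groups did not overlap and KO replicate 2 was lowest. The dimmer probe of Col5a2, at chr1:45445876-45445935 against chr1:45431204-45431263 for the representative one, gave a difference of -0.45 (SE 0.14; limma adjusted p = 0.203), also without overlap. Col5a3, whose chain replaces another in some type V molecules, read 0.86, 0.74 and 0.78 in WT and 0.42, 0.65 and 0.74 in KO. Its highest KO value and its lowest WT value were both 0.74 as rounded, and the log2 difference was -0.19 (SE 0.10; limma adjusted p = 0.441).

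The type XI chains, best known from cartilage, had larger differences. Col11a1 read 3.36, 3.79 and 3.48 in WT and 2.55, 1.55 and 2.27 in KO (log2 difference -1.42, SE 0.26; 2.68-fold lower; limma adjusted p = 0.0887). Its other tested probe (chr3:113793086-113793145, against chr3:113922153-113922211) read -0.24, -0.06 and -0.13 in WT and -0.99, -1.98 and -1.20 in KO (log2 difference -1.25, SE 0.25; limma adjusted p = 0.0975). Both probes thus gave no overlap and the same order of the KO arrays. Col11a2 read -1.21, -0.43 and -0.85 in WT and -2.12, -2.98 and -2.54 in KO (log2 difference -1.72, SE 0.27; 3.29-fold lower; limma adjusted p = 0.0723). KO replicate 2 was the lowest array and KO replicate 1 the highest of the KO arrays, as in Col11a1.

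Col24a1 encodes a fibrillar collagen found in developing bone. It read -2.40, -1.46 and -2.43 in WT and -3.41, -4.02 and -3.38 in KO, and it was well above background on 2 of the 3 KO arrays. The KO arrays lay below the WT arrays, among which WT replicate 2 stood highest. The log2 difference was -1.51 (SE 0.30; 2.84-fold lower; limma adjusted p = 0.0992), and -1.03 with normexp and quantile normalization.

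Among the FACITs, Col22a1 and Col14a1 had the most negative KO minus WT differences. Col22a1, whose collagen is found at tissue junctions such as that of muscle and tendon, read 2.95, 3.51 and 3.25 in WT and 1.72, 0.60 and 1.17 in KO by its representative probe at chr15:71628920-71628979. The highest KO array lay more than 1 log2 unit below the lowest WT array. The log2 difference was -2.08 (SE 0.29; 4.22-fold lower; limma adjusted p = 0.0646), and -2.35 (limma adjusted p = 0.122) when the 2 arrays with Xist signal were left out.

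The helix probe of Col22a1 printed above, which shares no bases with the representative probe, read -3.59, -3.28 and -3.36 in WT and -4.75, -5.21 and -5.02 in KO. It was well above background on all 3 WT arrays and on no KO array. It fell at least 1.42-fold, taken against the dimmest detected signal of the KO arrays. Its log2 difference as measured was -1.58 (SE 0.14; limma adjusted p = 0.0496). This call was lost without WT replicate 1, WT replicate 2, WT replicate 3, KO replicate 2 or KO replicate 3 (limma adjusted p = 0.101, 0.112, 0.0723, 0.0527 and 0.0891), with both Xist arrays left out (0.0779), with a sex term (0.0797), with the replicate number as a block (0.172) and without the filter on dim probes (0.0772). With normexp and quantile normalization the difference was -0.73 (0.0436).

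Col14a1 encodes a collagen that binds the surface of fibrils. It read -2.81, -2.61 and -2.65 in WT and -3.63, -4.41 and -3.84 in KO, where 1 of 3 arrays was well above background. The groups did not overlap, and KO replicate 2 was lowest. The log2 difference was -1.27 (SE 0.20; 2.41-fold lower; limma adjusted p = 0.0723) and -0.77 with normexp and quantile normalization (limma adjusted p = 0.0461).

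The other FACITs differed little. Col16a1, a minor fibril-associated chain, read 2.68, 2.62 and 2.71 in WT and 2.55, 2.52 and 2.56 in KO (log2 difference -0.13, SE 0.07; limma adjusted p = 0.419). The arrays were close together but did not overlap. Col20a1, a dim FACIT gene, was the gene with every KO array above every WT array, at -4.24, -4.04 and -4.11 in WT and -3.93, -3.59 and -3.97 in KO (log2 difference 0.30, SE 0.12; limma adjusted p = 0.312; 0.18 without KO replicate 2). Col9a2, a chain of the cartilage collagen type IX, differed by -0.21 (SE 0.24; limma adjusted p = 0.731), with overlapping groups. With both Xist arrays left out Col20a1 differed by 0.36 and Col9a2 by -0.37.

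**Figure D2:**
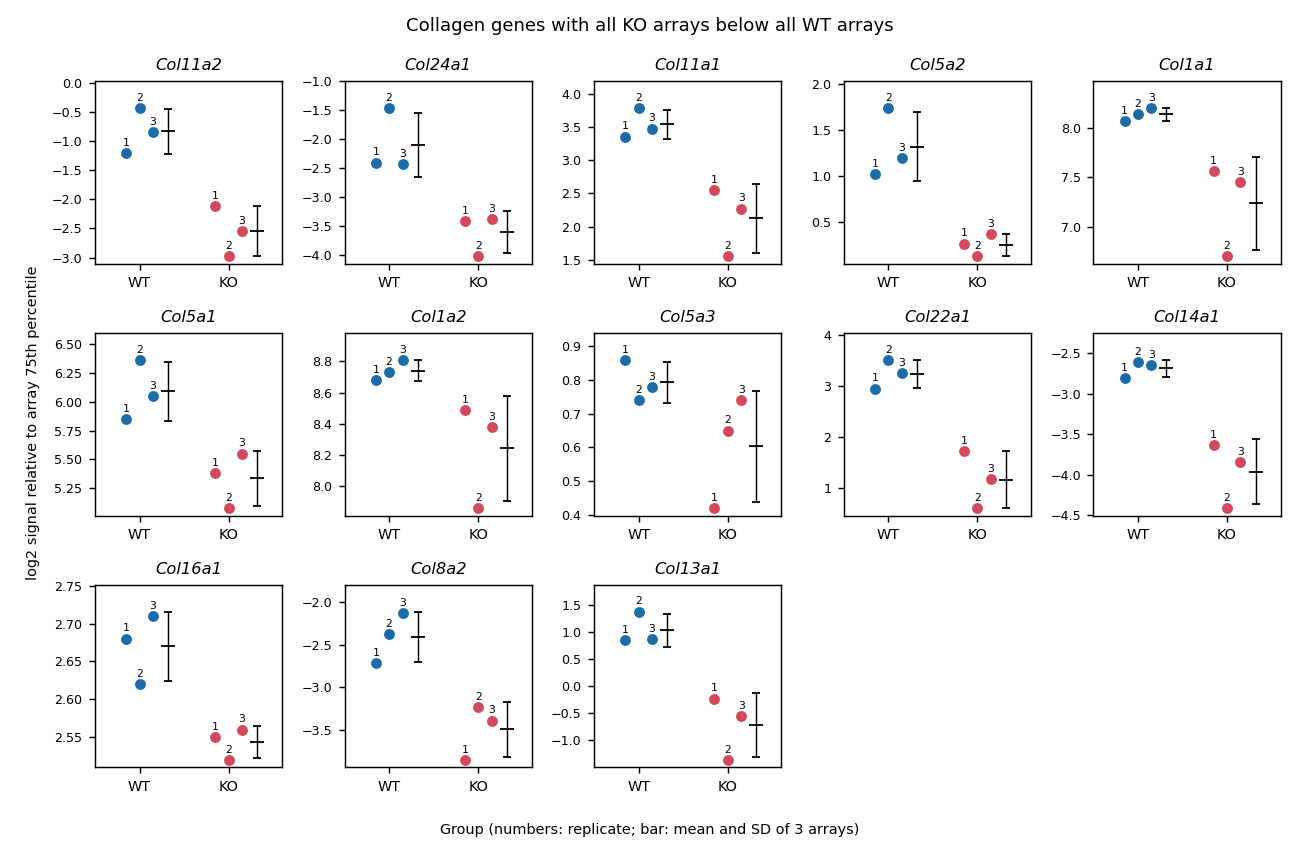
Log2 signal relative to the array's 75th percentile on each array for the 13 collagen genes in which every KO array lay below every WT array, with replicate numbers beside the points and bars for mean and SD of 3 arrays. Vertical scales differ between panels. KO replicate 2 is the lowest array in 11 of the 13 genes.

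In these 13 genes KO replicate 2 was the lowest array in 11 and KO replicate 1 in the other 2, Col5a3 and Col8a2. With the Xist arrays left out the 13 differences ran from -2.35 to -0.10, with a median of -1.14 against -1.08 on all arrays; their sign is fixed by how these genes were picked. In that smaller comparison Col11a1 differed by -1.67, Col11a2 by -1.94, Col24a1 by -1.77 and Col13a1 by -2.06. Col5a1 differed by -0.79, Col5a2 by -1.14, Col5a3 by -0.10, Col1a2 by -0.59, Col14a1 by -1.42, Col16a1 by -0.12 and Col8a2 by -0.76.

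Col8a2, with Col8a1 a chain of the hexagonal type VIII network, read -2.72, -2.38 and -2.13 in WT and -3.85, -3.23 and -3.39 in KO (log2 difference -1.08, SE 0.21; 2.11-fold lower; limma adjusted p = 0.0942). The groups did not overlap, and the difference was -0.60 with normexp and quantile normalization. Its partner Col8a1 read 5.04, 5.34 and 4.97 in WT and 4.87, 5.14 and 5.43 in KO (log2 difference 0.03, SE 0.17; limma adjusted p = 0.950). The chains of this type thus had unlike values, and whether their differences differ from each other was not tested.

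Col13a1, a transmembrane collagen of cell adhesion sites and the neuromuscular junction, read 0.84, 1.37 and 0.86 in WT and -0.23, -1.36 and -0.56 in KO by its representative probe (chr10:61301277-61301336, minus strand). The groups did not overlap. The log2 difference was -1.74 (SE 0.30; 3.33-fold lower; limma adjusted p = 0.0833). Its other tested probe, at chr10:61313890-61313949, did not show this: it read -2.78, -2.99 and -2.92 in WT and -2.92, -2.95 and -2.83 in KO (log2 difference 0.00, SE 0.09; limma adjusted p = 0.989).

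Col17a1, a collagen of hemidesmosomes, read -4.33, -2.56 and -3.69 in WT and -4.20, -4.28 and -3.88 in KO, where no array was well above background. The group means put KO at least 1.31-fold lower, but the groups overlapped and the value rests on single WT arrays. The log2 difference as measured was -0.60 (SE 0.42, limma adjusted p = 0.555), and it was -0.11 without WT replicate 2 and -1.0 without WT replicate 1. With both Xist arrays left out it was -0.64, and that of Col23a1 was -0.94. Col23a1, another membrane-spanning chain, read -3.14, -3.87 and -3.63 in WT and -3.56, -4.53 and -4.35 in KO (log2 difference -0.60, SE 0.29; limma adjusted p = 0.391), and -0.32 with normexp and quantile normalization. Its other tested probe gave no KO reading well above background, so the fold is a bound: at least 1.03-fold lower, without overlap of the groups. The log2 difference of that probe as measured was -0.74 (SE 0.15, limma adjusted p = 0.0949).

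**Figure D3:**
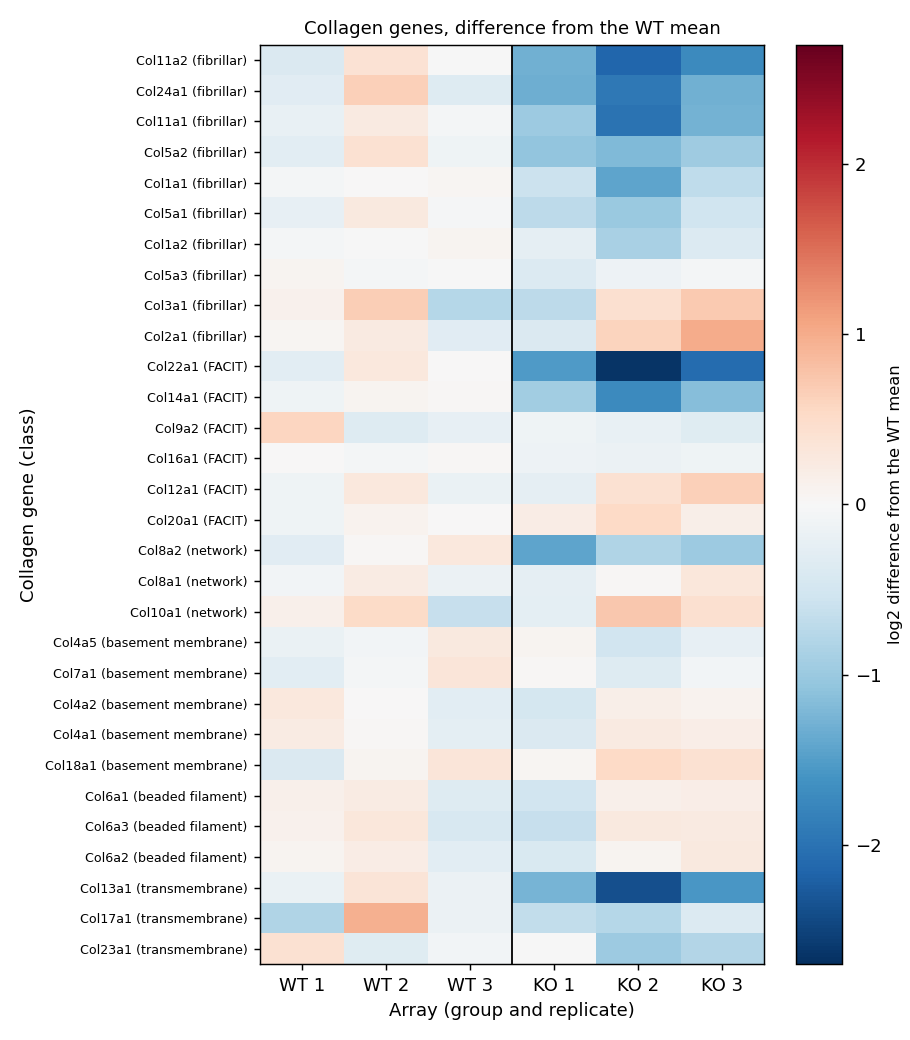
Log2 difference of each array from the mean of the 3 WT arrays for the 30 tested collagen genes, ordered by class and then by the KO minus WT difference, with WT arrays left and KO arrays right of the line. Types I, V, XI, XIV and XXII are blue on the 3 KO arrays, whereas Col3a1 and the type VI genes are blue on WT replicate 3 and KO replicate 1.

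Other collagen genes were not ordered by genotype but by the 2 arrays with Xist signal. In 10 of 30 genes, and 17 of 47 probes, WT replicate 3 and KO replicate 1 were the lowest of the 6 arrays, where this held for 6.54% of all genes. The 10 were Col3a1, Col2a1, Col12a1, Col6a1, Col6a2, Col6a3, Col4a1, Col4a2, Col8a1 and Col10a1. A gene with every KO array below every WT array cannot have this order. The pair was set by Xist and not by collagen values, but the pattern was noticed in these data and no test of it is given. Whether the sex of the animals had a part in it was not tested.

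Col3a1, the collagen of reticular fibres in marrow, vessels and skin, showed this most. It read 3.52, 4.07 and 2.64 in WT and 2.71, 3.84 and 4.11 in KO. WT replicate 3 lay 1.15 below the mean of the other WT arrays and KO replicate 1 lay 1.27 below the mean of the other KO arrays. The KO minus WT log2 difference was 0.14 (SE 0.47; limma adjusted p = 0.922), 0.18 without both arrays and -0.24 without WT replicate 3 alone. Its other tested probes had the same pair lowest, at -4.39 and -3.94 for the first and -3.28 and -2.93 for the latter, with differences of 0.47 (SE 0.40; limma adjusted p = 0.627) and 0.51 (SE 0.37; limma adjusted p = 0.576).

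The 3 type VI chains, which assemble into 1 heterotrimer and form filaments around cells, ran together. Col6a1 read 4.77, 4.87 and 4.28 in WT and 4.12, 4.77 and 4.81 in KO. Col6a2 read 1.79, 1.93 and 1.44 in WT and 1.31, 1.80 and 1.99 in KO. Col6a3 read 3.95, 4.14 and 3.40 in WT and 3.20, 4.09 and 4.07 in KO. In each gene the groups overlapped, and the same 2 arrays were lowest. The log2 differences were -0.08 (SE 0.23), -0.02 (SE 0.20) and -0.04 (SE 0.29), with limma adjusted p = 0.914, 0.974 and 0.967. The other tested probes of Col6a2 (0.29 and 0.02) and Col6a3 (0.28 and 0.19) had positive differences, and all 7 tested type VI probes had the same pair of arrays lowest.

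Col2a1, the main fibrillar collagen of cartilage, read 1.02, 1.22 and 0.67 in WT and 0.59, 1.57 and 1.97 in KO (log2 difference 0.41, SE 0.35; limma adjusted p = 0.632). Col10a1, a network collagen of hypertrophic cartilage, read -2.52, -2.14 and -3.28 in WT and -2.90, -1.92 and -2.21 in KO (log2 difference 0.30, SE 0.35; limma adjusted p = 0.743). The fibril-associated Col12a1 read 2.08, 2.48 and 2.03 in WT and 1.94, 2.61 and 2.84 in KO (log2 difference 0.27, SE 0.25; limma adjusted p = 0.652). In these 3 genes the groups overlapped, and KO replicate 2 or KO replicate 3 was the highest array. With both arrays left out the 10 differences ran from -0.03 to 0.65, with a median of 0.08: 0.65 for Col2a1, 0.45 for Col12a1, 0.26 for Col10a1, 0.18 for Col3a1, 0.10 for Col8a1, 0.07 for Col4a1, -0.02 for Col4a2, and -0.03, 0.03 and 0.04 for Col6a1, Col6a2 and Col6a3.

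**Figure D4:**
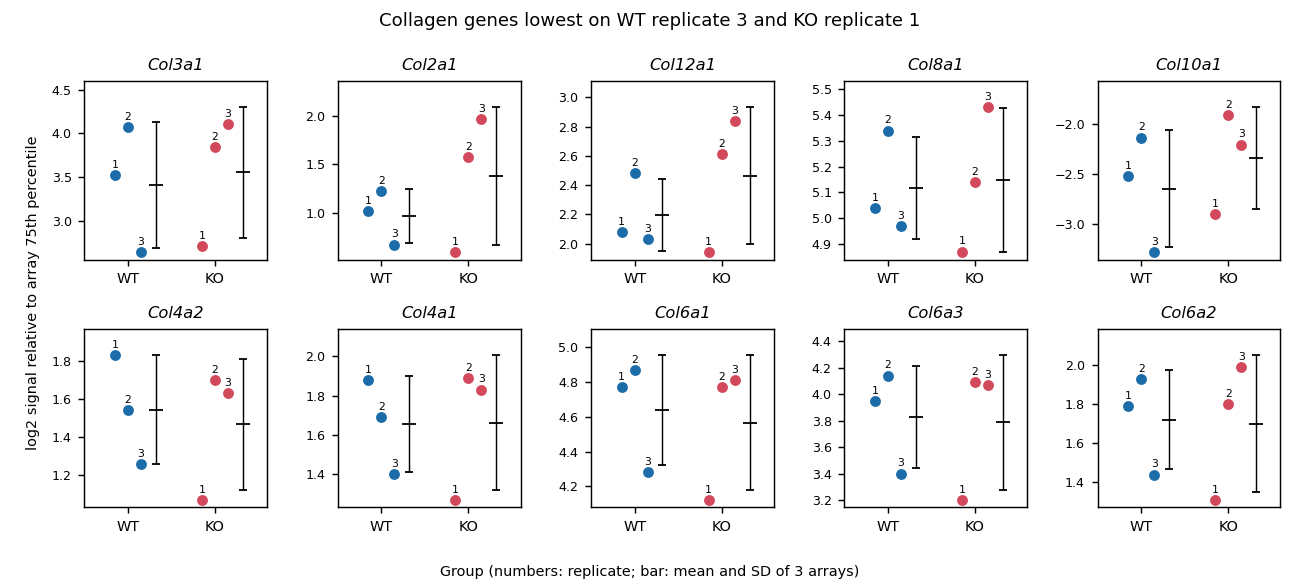
Log2 signal relative to the array's 75th percentile on each array for the 10 collagen genes in which WT replicate 3 and KO replicate 1 were the lowest of the 6 arrays, with replicate numbers beside the points and bars for mean and SD of 3 arrays. Vertical scales differ between panels, and the WT and KO means are close in every panel, with differences from -0.08 to 0.41.

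Collagens of the basement membrane class, of layers under epithelia and around vessels, had a median difference near 0. Col4a1 and Col4a2, the chains of the common type IV network, differed by 0.01 (SE 0.20; limma adjusted p = 0.991) and -0.07 (SE 0.21; limma adjusted p = 0.906) on the log2 scale. Col18a1, the precursor of endostatin, read 1.08, 1.54 and 1.80 in WT and 1.53, 2.01 and 1.89 in KO (log2 difference 0.33, SE 0.21; limma adjusted p = 0.504). Col4a5, a chain of a rarer type IV network, read -1.23, -1.13 and -0.79 in WT and -0.98, -1.56 and -1.27 in KO (log2 difference -0.22, SE 0.18; limma adjusted p = 0.613). Col7a1, of anchoring fibrils, read 0.04, 0.28 and 0.66 in WT and 0.37, -0.02 and 0.26 in KO (log2 difference -0.12, SE 0.18; limma adjusted p = 0.800). The groups overlapped in all 5 genes, and for the last 3 the 2 arrays with Xist signal were not the lowest. With that pair left out Col18a1 differed by 0.64, Col4a5 by -0.23 and Col7a1 by -0.04.

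Of the 12 genes with several tested probes, 5 had probes that differed in sign or by more than 0.5 in log2 difference: Col1a1, Col5a2, Col13a1, Col6a2 and Col6a3. In the first 3 the representative probe gave the larger difference. Probes of Col1a2, Col3a1, Col4a5, Col11a1, Col12a1, Col22a1 and Col23a1 differed by 0.5 or less.

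**Figure D5:**
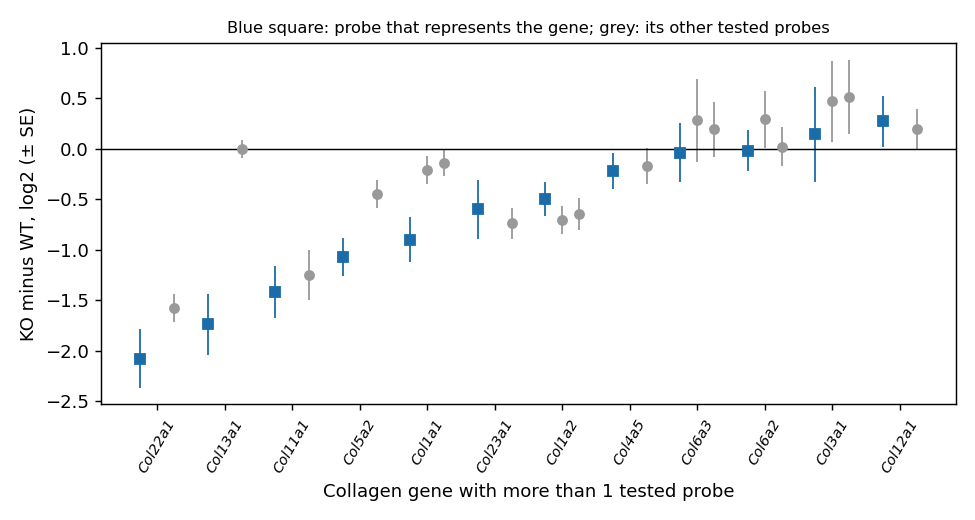
KO minus WT log2 difference with its standard error for each tested probe of the 12 collagen genes that have more than 1, with blue squares for the probe that represents the gene and grey circles for its other probes. The probes of Col13a1 range from -1.74 to 0.00 and those of Col1a1 from -0.90 to -0.14.

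The promoters of genes with the patterns above are shown for comparison. A RefSeq table for GRCm38.p6 matched 35 of the 44 genes with 38 promoters, of which the 250 bases before the start were searched on both strands for the letters CCAAT (the CCAAT box), TATAAA (the TATA box), GGGCGG (the GC box) and TGTGGT (the core that RUNX factors bind). Each motif was counted separately, without removing overlaps. CCAAT was found in 4 of the 9 matched promoters of genes whose KO arrays were all lower (44.4%), in 34.2% of all collagen promoters and in 33.8% of the table's 32851 promoters. GGGCGG was found in 7 of those 9 (77.8%), in 57.9% of collagen promoters, in 4 of the 9 promoters of genes lowest on WT replicate 3 and KO replicate 1, and in 32.7% of all promoters. TATAAA was found in 13.2% of collagen promoters and 12.4% of all promoters, and TGTGGT in 7.89% and 14.0%. In each of these sets of genes TATAAA was found in 2 of the 9 promoters (22.2%). CCAAT was found in 2 of the 9 promoters (22.2%) of genes lowest on WT replicate 3 and KO replicate 1. The promoters of Col1a2 and Col11a1, whose KO arrays were lower, and of Col3a1 are printed, on the plus strand 5′ to 3′ up to the base before the start, with capitals for CCAAT (or ATTGG, its other strand) and TATAAA.

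Col1a2 promoter: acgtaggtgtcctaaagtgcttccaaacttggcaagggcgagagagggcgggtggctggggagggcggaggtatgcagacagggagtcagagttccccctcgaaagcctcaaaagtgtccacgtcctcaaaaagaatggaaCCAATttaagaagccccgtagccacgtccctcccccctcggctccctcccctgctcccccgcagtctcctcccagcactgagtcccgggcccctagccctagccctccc
Col11a1 promoter: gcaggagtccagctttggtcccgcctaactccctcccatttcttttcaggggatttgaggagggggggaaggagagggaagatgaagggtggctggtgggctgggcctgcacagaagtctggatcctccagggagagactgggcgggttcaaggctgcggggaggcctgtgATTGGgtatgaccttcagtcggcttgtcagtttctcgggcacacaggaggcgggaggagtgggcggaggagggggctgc
Col3a1 promoter: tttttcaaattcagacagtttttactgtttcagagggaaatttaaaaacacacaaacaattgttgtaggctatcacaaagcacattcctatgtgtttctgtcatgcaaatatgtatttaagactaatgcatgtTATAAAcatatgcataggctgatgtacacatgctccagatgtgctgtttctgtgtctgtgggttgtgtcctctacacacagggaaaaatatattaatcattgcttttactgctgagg

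These lie at chr6:4505368-4505617, chr3:114030290-114030539 and chr1:45311288-45311537. In the Col1a2 and Col11a1 windows CCAAT or its other strand occurs once each and GGGCGG is found in both, whereas the Col3a1 window holds TATAAA and neither of those. The printed windows do not stand for their sets. Those of Col11a2 and Col13a1, whose KO arrays were lower, hold TATAAA and no CCAAT. Those of Col4a1 and Col4a2, lowest on WT replicate 3 and KO replicate 1, hold CCAAT or its other strand. A match is a description of letters and no evidence of binding.

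The genes that fold, trim and cross-link collagen were examined beside the chains. Over all 15371 genes 44.17% had a negative difference, and, as above, 8.03% were lower and 6.94% higher at an unadjusted limma p under 0.05. Of 18 tested genes for chain folding and modification, 17 had a negative difference (median -0.36), 11 were lower at an unadjusted limma p under 0.05 and 0 passed the adjusted p. Creb3l1, a transcription factor of procollagen export, differed by -0.98 (SE 0.16; limma adjusted p = 0.0749), and P4ha2, a prolyl hydroxylase subunit, by -0.62 (SE 0.10; limma adjusted p = 0.0823). Of 6 propeptide cleavage genes 5 were negative (median -0.49; 5 at that unadjusted p), among them the proteinase genes Adamts14 (-0.68, SE 0.15; limma adjusted p = 0.124) and Bmp1 (-0.56, SE 0.16; limma adjusted p = 0.179). Of 5 lysyl oxidase genes 4 were negative (median -0.42; 3 at that p), with Loxl4 at -2.15 (SE 0.39; limma adjusted p = 0.0887) and Lox at -0.48 (SE 0.13; limma adjusted p = 0.179).

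All 6 tested proteoglycans that bind fibrils were negative (median -0.98; 4 at an unadjusted limma p under 0.05), and 5 of them were detected on all 6 arrays. Lum, among the 4, was well above background on no KO array, and Ogn was at -0.04 (SE 0.23). Fmod, which encodes fibromodulin, passed (limma adjusted p = 0.0496). It fell from 1.78, 1.84 and 2.23 in WT to -0.82, -0.63 and 0.01 in KO, by 2.43 on the log2 scale (SE 0.23). The Fmod call was lost with the replicate number as a block, with a sex term, without the filter on dim probes and without WT replicate 2. In these settings 0 of all genes passed. Of 8 receptor genes 5 were negative (median -0.15; 3 lower and 1 higher at that p), with Itga10, an integrin chain, at -1.45 (SE 0.23; limma adjusted p = 0.0730) and Mrc2, a collagen uptake receptor, at -0.80 (SE 0.21; limma adjusted p = 0.154). Of 6 collagen-degrading enzymes 4 were negative (median -0.37; 3 at that p), with Mmp2 at -0.78 (SE 0.11; limma adjusted p = 0.0691) and Mmp14 at -0.34 (SE 0.09; limma adjusted p = 0.153).

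Markers of cell types that the cultures could hold were read on the same arrays. Of 12 osteoblast markers, 10 were lower at an unadjusted limma p under 0.05. The other members were Spp1, which encodes osteopontin, with every KO array above every WT array (log2 difference 0.25, SE 0.09; limma adjusted p = 0.259), and Sparc, which encodes osteonectin, at 0.03 (SE 0.11; limma adjusted p = 0.938). The median level of the list ran from 3.37 to 3.50 on WT arrays and from 1.72 to 2.61 on KO arrays, lowest on KO replicate 2. Ibsp, which encodes bone sialoprotein, passed (log2 difference -1.73, SE 0.16; limma adjusted p = 0.0496). Its call, like that of Fmod, was lost in the settings in which 0 of all genes passed. The median level of the 15 macrophage markers ran from 4.84 to 5.18 in WT and from 4.81 to 4.99 in KO, with 12 positive differences and a median of 0.12. Medians were -0.62 for 6 chondrocyte, -0.20 for 9 fibroblast and tendon, 0.03 for 5 endothelial, 0.04 for 6 smooth muscle and pericyte and 0.14 for 4 Schwann and neural markers. The 6 chondrocyte markers were those tested of 12 listed, and 4 of them were detected on all 6 arrays. They went both ways, with 4 negative and 2 positive (Sox5 at 0.26, SE 0.08, and Sox9 at 0.09, SE 0.15). Of the smooth muscle and pericyte markers 4 were positive and 2 negative, among the latter Cspg4 at -1.56 (SE 0.33). The part of these cell types in the collagen differences was not tested.

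The other 14 genes had no tested probe. Those were Col27a1 of the fibrillar class, Col9a1, Col9a3 and Col19a1 of the FACITs, Col4a3, Col4a4, Col4a6 and Col15a1 of the basement membrane, Col6a4, Col6a5 and Col6a6 of type VI, the transmembrane Col25a1, and Col26a1 and Col28a1. Over all members, 34 of 91 probes were not well above background on any array, and 10 were so on some arrays without meeting the rule. Levels under the array's background do not show that these genes were not transcribed.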

How the data were processed

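RNA of 3 WT and 3 KO samples was measured on 1-colour arrays. The groups were taken from the sample titles; the labels' description and extraction protocol speak of human blood, while titles, source names and organism speak of mouse stromal cells, and the latter were followed. Per the file headers, the spot intensity values are the processed signal, already background-subtracted by Agilent Feature Extraction 10.7.1.1, while the submitters' processing notes name version 9.1. The log2 values of the deposited series table have a median of 6.15 in every column, and their sorted values differ by at most 0.0028 between columns. Against the scanner's processed signals of the same array, on the log2 scale, r ran from 0.9976 to 0.9999; further steps by the authors were not given in the sources used here.

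From the processed signal, log2 values minus each array's 75th percentile over non-control probes were computed, with outlier spots left out and spots of 1 probe averaged. The outlier spots numbered 49, 63 and 72 on the WT arrays and 83, 90 and 131 on the KO arrays. No non-control spot was saturated. Probe names came from the files and, for all genes, from a RefSeq table (GRCm38.p6) by accession (32994 probes), symbol (10224) or synonym (519); 2575 kept the file's name and 10293 had none. The 28607 probes kept were tested with limma 3.58.1 in R 4.3.3 (lmFit, then two-sided eBayes tests of the group term; degrees of freedom 4 residual, 2.65 prior), with Benjamini-Hochberg adjustment over all of them. For a fold given as a bound, each array of the dim group counted at its own signal or at the array's dimmest detected probe, whichever was higher. With 3 arrays per group, their number limits the precision.

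The collagen genes, the pathway and marker lists, and the naming rule were chosen with earlier results of these data known. Named with all values are the 5 marker chains, 4 partner chains and up to 3 further genes per class with the smallest unadjusted p, and for each pathway list the genes past the adjusted p or else the 2 with the smallest p. Other processing choices tried are given in the closing section.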

Additional observations from a re-analysis of the deposited data

Results flagged for a closer look

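Among the collagen probes too dim for the test, 2 were well above background on 1 KO array and on no WT array; both were singled out once their values were known. A Col19a1 probe read -2.45 on KO replicate 3, against -6.63 to -4.89 on the other 5 arrays. A Col28a1 probe read -2.49 on KO replicate 1, against -6.93 to -5.06 on the others. Each signal rests on 1 array, and no test was made.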

How the results depend on the processing

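Of the 16 other settings tried, all kept 9 to 12 collagen genes lower at an unadjusted limma p under 0.05 (11 in the fit reported). These settings tested 24 to 44 collagen genes, and 4.44% to 9.23% of all genes were lower at that p. The median collagen difference ran from -0.25 to -0.10. The counts past the adjusted p moved. With the fit reported it was 0 genes and 1 probe; with median centring 1 gene and 2 probes (62 of all genes tested, 0.403%); with normexp and quantile normalization 5 genes (Col5a2, Col11a2, Col13a1, Col14a1 and Col22a1) and 6 probes (142 of all genes, 0.924%); with a variance trend 6 genes (these and Col11a1) and 7 probes (153, 0.995%); and with a gene's probes averaged 1 gene (Col22a1; 28, 0.182%). The fit reported called 12 of all genes (0.0781%). The collagen count was 0 probes without the filter on dim probes and with a sex term, but in these settings 0 of all genes passed. It was also 0 with only probes well above background on all 6 arrays (6 of 14300 genes, 0.042%), a setting that leaves out the Col22a1 helix probe. Without the 2 arrays with Xist signal the collagen count was 0 as well (11 of 15482 genes, 0.0711%). Leaving out 1 replicate at a time gave 0 to 1 collagen probes and 0 collagen genes, where 0 to 16 of all genes passed. With the replicate number as a block it was 0 probes and 0 genes, where 0 of all genes passed. With that block 12 collagen genes were lower at the unadjusted p (8.34% of all genes). Where no gene passed, a collagen count of 0 is no result about collagen. Same-numbered samples, which share a position in the slide's row, correlated in their deviations with r of 0.06, 0.15 and -0.03. For differently numbered samples r ran from -0.24 to 0.18. These values do not show a pairing by number, and with 3 arrays per group they cannot exclude one. A slide or scan block was not run, as there was 1 slide and 1 scan. The causes of these moves were not tested. Differences under 0.5 of the genes with overlapping groups changed sign in 29 gene and setting combinations, each without a call. Dim genes such as Col14a1 and Col24a1 are limited by signal over background.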
